A study of Mus musculus with 6 samples.

Results

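Genes for the breakdown of the branched-chain amino acids leucine, isoleucine and valine were measured by RNA-seq in gastrocnemius (Gas) muscle of mice with and without miR-92b. The 10 genes (Bcat2, Bckdha, Bckdhb, Dbt, Bckdk, Ppm1k, Ivd, Mccc1, Hibch and Hibadh) were chosen by name for their place in the pathway and are 10 of the 34714 gene symbols counted. The WT group was 3 mice and the M92KO group 3 mice, all 8 weeks old and untreated, with 1 library for each mouse. M92KO mice (miR-92b-/-) carried a germline knockout in every tissue, from Gempharmatech on a C57BL/6JGpt background. The study's methods describe male mice with the miRNA's exons deleted and give another source, the Animal Center of Nanjing University. They name age-matched C57BL/6 mice as the WT controls, without a source. Nothing in these sources says that the controls were littermates. The labels give free access to a standard diet for both groups, and the study's methods describe an overnight fast of treated mice before tissue was taken, without saying whether it applied to these untreated ones. Mir92b itself was not analysed here, so the labels were not checked against the loss of the miRNA.

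Branched-chain amino acids are broken down largely outside the liver, and skeletal muscle is a main site of the first step. Bcat2 removes the amino group in mitochondria. The branched-chain ketoacid dehydrogenase then decarboxylates the resulting ketoacids in a step that cannot be reversed, and it is switched off by the kinase Bckdk and on by the phosphatase Ppm1k. Beyond it, leucine, isoleucine and valine follow separate arms, and Ivd and Mccc1 serve the leucine arm while Hibch and Hibadh serve the valine arm.

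None of the 10 genes passed a test of a difference between M92KO and WT mice. All 10 were measured well, with between 707 and 7980 reads in each library, and all 10 passed the filter on low counts that left 15788 genes to test. With edgeR's quasi-likelihood test, 0 of the 10 had a p-value under 0.05 before adjustment, beside 1955 of all genes tested (12.4%). After Benjamini-Hochberg adjustment 0 of the 10 and 0 of all genes (0%) passed, and the adjusted p-values of the 10 lay between 0.424 and 0.984. DESeq2's Wald test with its own adjustment called 0 of the 10 and 312 of the 14253 genes it adjusted (2.19%). The 95% intervals of all 10 fold changes, M92KO against WT, lay within 0.829 and 1.39.

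The sequences of the deleted miRNA come first, since they define the matches that were searched for in the 10 genes. The mature arms are given 5′ to 3′ from RefSeq (GRCm38.p6), with the seed, bases 2 to 8, in capitals. The 3p arm lies at chr3:89227126-89227147 and the 5p arm at chr3:89227165-89227188, both on the minus strand.
miR-92b-3p: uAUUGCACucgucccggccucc
miR-92b-5p: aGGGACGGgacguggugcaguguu

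The annotated 3′-UTRs (GENCODE M21, GRCm38) of 3 of the 10 genes hold a match to one of these seeds, here counted as 6 bases (TGCAAT for the 3p arm, CGTCCC for the 5p arm), as 7 bases or as the full 8 (GTGCAATA or CCGTCCCA), on the transcript's strand and each counted once under its longest form. Bcat2 has an 8-base match to miR-92b-3p at chr7:45589430-45589437 and 6-base matches at chr7:45589517-45589522 and chr7:45589678-45589683, in a 3′-UTR of 367 bases. Dbt has a 7-base match to miR-92b-3p at chr3:116548672-116548678, in a 3′-UTR of 1781 bases. Ivd has an 8-base match to miR-92b-5p at chr2:118882315-118882322, in a 3′-UTR of 2323 bases. All lie on the plus strand, and each is shown with its flanks, the matched bases in capitals.
Bcat2, 8-base match: actcaagagaaGTGCAATAgggaaaggtct
Bcat2, 6-base match nearer the stop codon: ggcgggacccaTGCAATttggacgccac
Bcat2, 6-base match nearer the 3′ end: tccgtacttgcTGCAATtttgaaataaa
Dbt, 7-base match: gtacaaaataaGTGCAATtctgtttatct
Ivd, 8-base match: caaccccacacCCGTCCCAtcttaagaggg
Of the 13505 genes tested that have an annotated 3′-UTR, 4558 (33.8%) hold a match of some form to either seed, so 3 of 10 is near the share of all genes. By class, 389 (2.88%) have an 8-base match to miR-92b-3p as their best and 702 (5.2%) a 7-base match like that of Dbt, while 133 (0.985%) have an 8-base match to miR-92b-5p. A match is a feature of the letters only. None of the 3 genes that hold one passed the test between the genotypes (their values follow), and over the 389 genes with the 8-base miR-92b-3p match the median log2 fold change was -0.023, with 14 higher and 43 lower in M92KO at an unadjusted p under 0.05. The 702 genes with the 7-base match like that of Dbt had a median of -0.028 (37 higher, 75 lower), and the 133 with the 8-base miR-92b-5p match a median of -0.023 (4 higher, 14 lower). For the other miR-92b-3p classes the median was -0.006 with the other 7-base form (871 genes, 45 higher, 73 lower). With 6 bases as the best match it was -0.022 (1738 genes, 76 higher, 163 lower). The 9805 genes with no miR-92b-3p match had a median of 0.005 (571 higher, 646 lower). The 12135 with no miR-92b-5p match had a median of 0.001 (675 higher, 870 lower). The median 3′-UTR was 2498 bases for the 8-base and 2549 for the 7-base miR-92b-3p class, and 2169 for the 8-base miR-92b-5p class. It was only 890 bases without a miR-92b-3p match and 1095 without a miR-92b-5p match. The part of 3′-UTR length in these medians and counts was not tested. No test was made between these classes.

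Bcat2 (chr7:45570153-45589711), the mitochondrial aminotransferase that starts the pathway, had 47.7, 46.6 and 53.5 CPM (counts scaled to the library size after TMM normalization) in WT replicates 1 to 3 and 61.5, 44.7 and 50.3 CPM in M92KO replicates 1 to 3. Both the highest and the lowest value belonged to M92KO mice, so the groups overlapped. The log2 fold change, M92KO against WT here and throughout, was 0.083 (SE 0.12), or 1.06-fold with a 95% interval of 0.88 to 1.27 and an adjusted p of 0.828. The sign rests on M92KO replicate 1, without which Bcat2 had a log2 fold change of -0.052. The strand setting of the counting is not given in the sources used here, and the exons of Bcat2 overlap 0610005C13Rik on the opposite strand, which had between 12 and 23 reads in a library.

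No subunit of the dehydrogenase passed the test. Bckdha (chr7:25629946-25658981, minus strand), the alpha subunit that the kinase phosphorylates, had 173, 172 and 166 CPM in WT and 180, 152 and 175 CPM in M92KO mice. The 3 WT values lay inside the range of the M92KO ones, with a fold change of 0.992 (95% interval 0.876 to 1.12, edgeR adjusted p 0.969). Its beta partner Bckdhb (chr9:83925145-84124240) had 25.3, 23.9 and 28.2 CPM in WT and 35.2, 21.6 and 26.1 CPM in M92KO mice. M92KO replicate 1 stood highest and M92KO replicate 2 lowest, as for Bcat2 and Bckdha. Its log2 fold change of 0.099 had the widest error of the 10 (SE 0.16, edgeR adjusted p 0.854), and without M92KO replicate 1 it was -0.114.

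Dbt (chr3:116513070-116549981), the transacylase core of the complex, had 33.7, 34.9 and 36.5 CPM in WT and 31.3, 36.2 and 35.7 CPM in M92KO mice. M92KO replicate 1, which was the highest library for Bckdha and Bckdhb, was the lowest for Dbt. The fold change was 0.982 (95% interval 0.867 to 1.11, edgeR adjusted p 0.929). Dld, the lipoamide dehydrogenase that this complex shares with pyruvate dehydrogenase, had a log2 fold change of -0.001 (SE 0.12), with 360, 469 and 503 CPM in M92KO mice around the WT range of 422 to 468 CPM.

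The pair that sets the activity of the complex held the gene nearest to the threshold. Bckdk (chr7:127904082-127910221), the inactivating kinase, had 161, 160 and 161 CPM in WT and 153, 152 and 168 CPM in M92KO mice. The WT values were nearly equal (161 ± 0.614, SD, n = 3) and lay between the M92KO ones (158 ± 9.39), with a fold change of 0.981 (95% interval 0.882 to 1.09, edgeR adjusted p 0.907). Ppm1k (chr6:57506502-57535468, minus strand), the activating phosphatase, had 26.5, 29.2 and 26.9 CPM in WT and 29.1, 32.7 and 30.9 CPM in M92KO mice. A single pair of libraries overlapped, M92KO replicate 1 lying just under WT replicate 2. Its log2 fold change was 0.17 (SE 0.077), or 1.12-fold with a 95% interval of 0.996 to 1.27, an edgeR adjusted p of 0.424 and an exact permutation p of 0.2, and it stood at rank 2115 of all genes by p-value.

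Bckdk and Ppm1k were also set against each other as a ratio of reads within each library, which no scaling between libraries can move. The ratio was 6.1, 5.49 and 5.97 in WT and 5.24, 4.63 and 5.45 in M92KO mice, a mean of 5.85 ± 0.323 against 5.11 ± 0.423 (SD, n = 3). The groups did not overlap, but the gap between the lowest WT and the highest M92KO value was narrow. The log2 difference was -0.198, with an exact two-sided permutation p of 0.1, the smallest that 3 against 3 allows, and of 0.6 after Benjamini-Hochberg adjustment over the 6 ratios computed. In the other ratios (Bckdk to Bckdha, Bckdha to Bckdhb, Bckdha to Dbt, Bckdhb to Dbt and Hibadh to Hibch) the groups overlapped. These 6 ratios were chosen after the values had been seen.

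**Figure D1:**
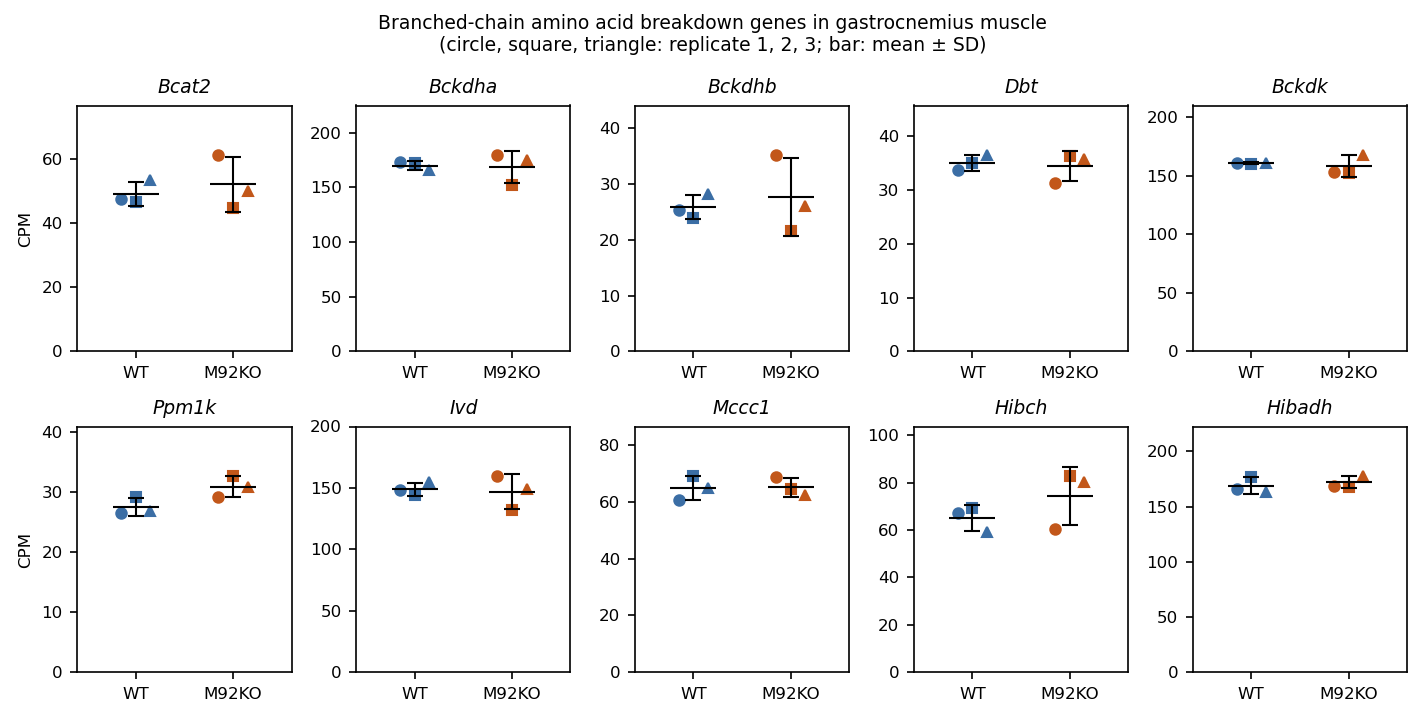
CPM (vertical axis, from 0, each panel with its own scale) of the 10 genes in WT and M92KO Gas muscle, with a point for each library and bars for the mean ± SD of 3 mice. The groups overlap in every panel, and M92KO replicate 1 (circle) is the highest library for Bcat2, Bckdha, Bckdhb and Ivd.

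Downstream in the leucine arm, neither gene passed the test. Ivd (chr2:118861954-118882909), which encodes isovaleryl-CoA dehydrogenase, had 148, 144 and 155 CPM in WT and 160, 132 and 149 CPM in M92KO mice. As for Bcat2, the highest and lowest libraries were M92KO replicates 1 and 2, and the fold change was 0.991 (95% interval 0.87 to 1.13, edgeR adjusted p 0.968). Mccc1 (chr3:35959312-36000678, minus strand), the biotin-carrying subunit of methylcrotonoyl-CoA carboxylase, had 60.6, 69.1 and 64.9 CPM in WT and 68.7, 64.4 and 62.2 CPM in M92KO mice. All 3 M92KO values lay between WT replicates 1 and 2, with a log2 fold change of 0.0057 (SE 0.075, edgeR adjusted p 0.984). Its partner subunit Mccc2 was at 44.8 ± 3.08 CPM in WT and 44.0 ± 3.27 CPM in M92KO mice.

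In the valine arm, Hibch (chr1:52844929-52920986), a hydrolase that frees hydroxyisobutyrate from coenzyme A, had 67.3, 69.3 and 59.0 CPM in WT and 60.3, 82.9 and 80.1 CPM in M92KO mice. M92KO replicates 2 and 3 were above every WT library, while M92KO replicate 1 was within the WT range. The log2 fold change was 0.19 (SE 0.12), the largest of the 10, or 1.14-fold with a 95% interval of 0.939 to 1.39, an edgeR adjusted p of 0.593 and an exact permutation p of 0.3. Without M92KO replicate 1, Hibch had a log2 fold change of 0.32 (SE 0.076), past 0.05 before adjustment but not after it (edgeR adjusted p 0.074). Hibadh (chr6:52546228-52640389, minus strand), the dehydrogenase that follows, had 166, 177 and 163 CPM in WT and 169, 168 and 178 CPM in M92KO mice. Its groups overlapped almost fully, with a fold change of 1.02 (95% interval 0.919 to 1.13, edgeR adjusted p 0.907).

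Across the 10 genes, 6 log2 fold changes were positive and 4 negative, with a median of 0.017, beside a median of -8.07e-05 over all genes tested. The median size of the change, sign aside, was 0.028 for the 10 and 0.122 for all genes. Their errors were mostly small for these libraries (SE 0.066 to 0.16, median 0.0785, under the median of all genes, 0.123, in 8 of the 10). By level, however, the 10 stood between percentiles 64.7 and 94.7 of all genes tested. They were not compared with genes of like level. In 0 of the 10 did the groups fail to overlap, which 18.4% of all genes did, 8.77% with every M92KO value higher and 9.58% with every one lower. In one direction, 0 of the 10 were higher and 0 lower at an unadjusted p under 0.05, beside 5.47% and 6.92% of all genes. Summed over the 10 genes, the level was 908.9, 926.9 and 912.8 CPM in WT and 948.5, 886.9 and 956.4 CPM in M92KO mice (916 ± 9.45 against 931 ± 38.1, SD, n = 3). The WT sums lay inside the M92KO range.

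**Figure D2:**
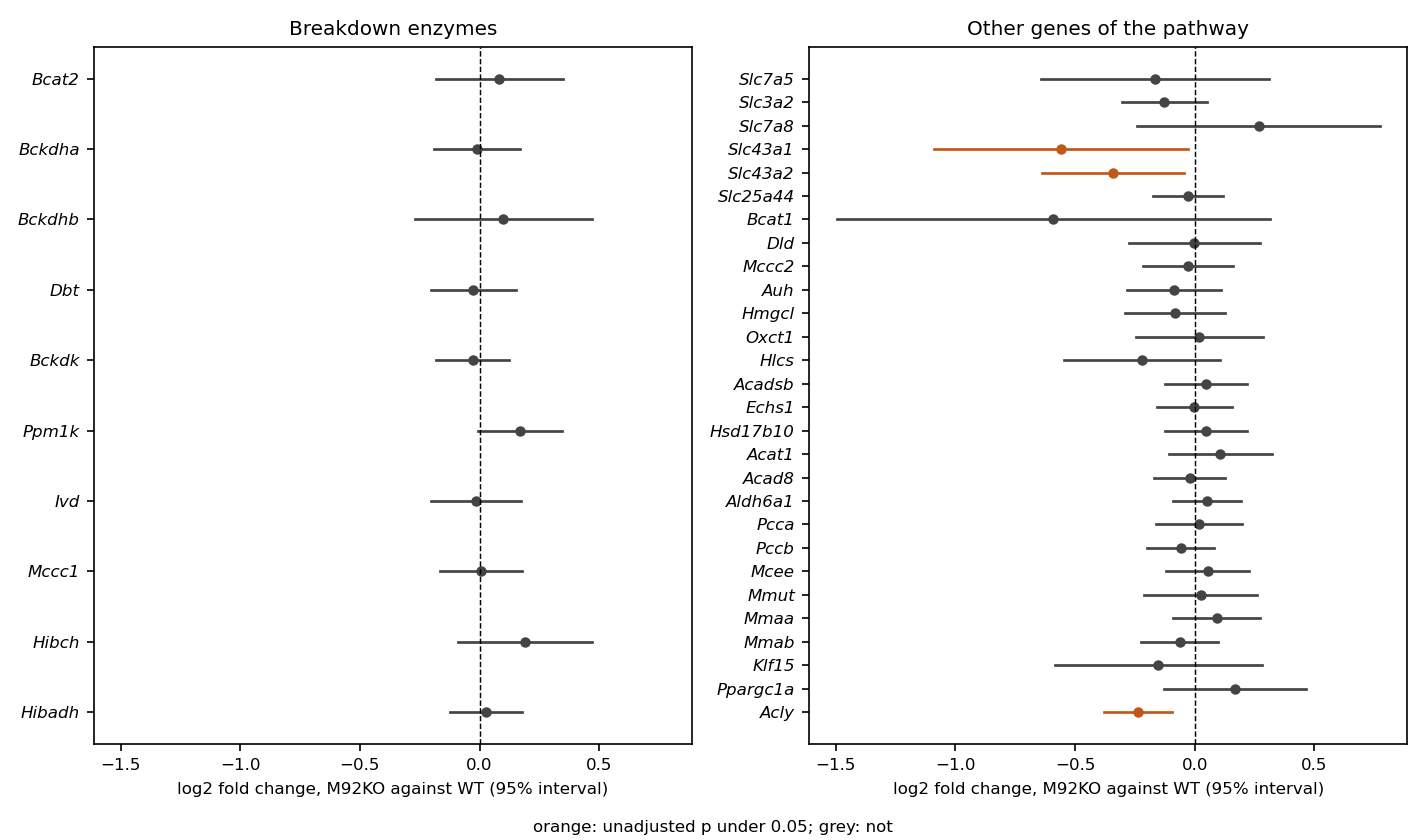
Log2 fold change, M92KO against WT, with its 95% interval from edgeR, for the 10 breakdown genes (left) and the 28 other genes of the pathway (right), on the same horizontal scale. The intervals of all 10 cross 0, and those of Slc43a1, Slc43a2 and Acly, in orange, lie below it before adjustment.

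Levels were compared between genes per kilobase of the median transcript length in GENCODE M21. On this scale WT mice had 129 CPM per kb of Bckdha, 122 of Bckdk, 92.4 of Hibadh, 40.6 of Ivd and 36.9 of Hibch. Lower down came Bcat2 with 29.3, Mccc1 with 26.4, Dbt with 18.7, Bckdhb with 17.5 and Ppm1k with 8.88 CPM per kb. The standard deviations over 3 mice (2.96 for Bckdha, 0.466 for Bckdk, 1.49 for Ivd, 3.07 for Hibch, 2.2 for Bcat2, 1.72 for Mccc1, 0.768 for Dbt and 1.48 for Bckdhb) leave Ivd and Hibch, Bcat2 and Mccc1, and likewise Dbt and Bckdhb, within each other's spread. Ppm1k was the lowest of the 10 on either length. The rest of the order depended on the length used. By the longest transcript Bckdk had 47.2 CPM per kb beside 89.7 for Bckdha and 92.4 for Hibadh, Bcat2 (23.7) came below Mccc1 (26.4), and Dbt (10.6) came below Bckdhb (17.5).

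The spread among M92KO mice was larger than among WT mice in 8 of the 10 genes, on the log2 scale, as it was in 67.4% of all genes tested. The median SD of log2 CPM within a group was 0.0938 for the 10 genes and 0.154 for all genes, most of which had lower levels. M92KO replicate 1 was the highest library for 4 genes (Bcat2, Bckdha, Bckdhb and Ivd), and M92KO replicate 2 was the lowest for these and for Bckdk. Hibch and Ppm1k were highest in M92KO replicate 2. Bckdhb ranged furthest, from -0.29 in M92KO replicate 2 to 0.41 in M92KO replicate 1 around its mean log2 CPM. From mouse to mouse the 10 genes did not go up and down together, and M92KO replicates 1 and 2 stood on opposite sides for several of them.

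**Figure D3:**
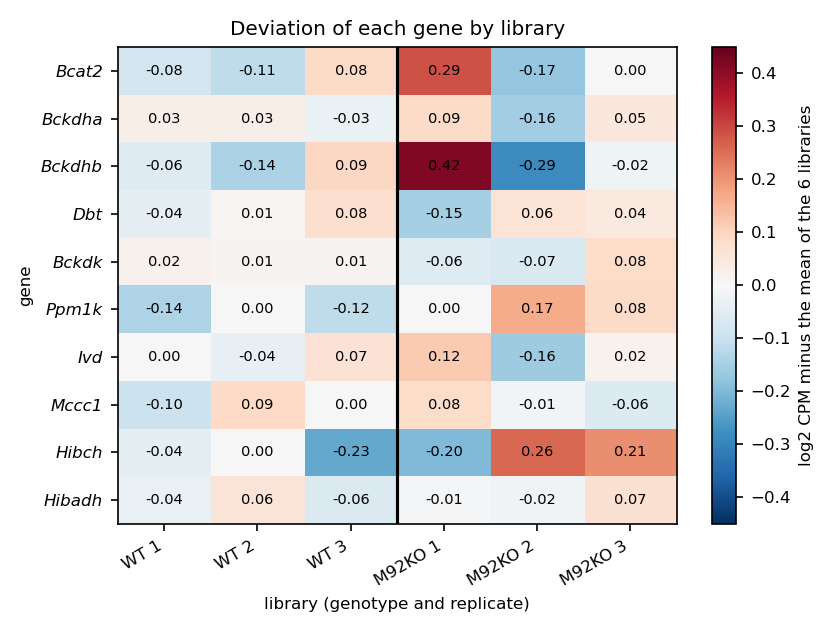
Log2 CPM of each of the 10 genes (rows) in each library (columns) minus the gene's mean over the 6 libraries, as colour and printed value; the line parts WT from M92KO. Bcat2, Bckdhb and Ivd are red in M92KO 1 and blue in M92KO 2, and Hibch has the opposite colours.

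The genes whose pattern was most like the mean of the 10, by Pearson's r of log2 CPM with the mean standardised level over 6 libraries, were Eloc (r = 0.993), Haus7 (0.99), Rangrf (0.986), Gm46916 (0.984) and Meioc (0.984). That mean was lowest in M92KO replicate 2 (-0.4) and WT replicate 1 (-0.393) and highest in M92KO replicate 3 (0.484). All genes share the depth and normalization of the same 6 libraries, and there were 15788 genes to choose from, so these values are a description.

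The other 28 genes of branched-chain amino acid transport and breakdown were all measured. None had an edgeR adjusted p under 0.05, and at an unadjusted p under 0.05, 0 were higher and 3 lower in M92KO mice. These 3 are 10.7% of the 28, near the 12.4% of all genes, so the count sets the list apart in no way. Of these 28, 11 log2 fold changes were positive and 17 negative, with a median of -0.024. The count moved with single libraries, being 1 without WT replicate 2 and 5 (3 higher, 2 lower) without M92KO replicate 1. Over all genes it moved the same way, to 1222 of 15970 without WT replicate 2 and 2984 of 16058 without M92KO replicate 1. The 3 genes were Acly, Slc43a2 and Slc43a1.

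Acly, ATP-citrate lyase, which makes cytosolic acetyl-CoA and is known as another substrate of the kinase Bckdk and the phosphatase Ppm1k, had 38.8, 37.7 and 38.9 CPM in WT and 31.8, 32.4 and 33.7 CPM in M92KO mice. Every M92KO value was below every WT value, and the log2 fold change was -0.24 (SE 0.062, edgeR adjusted p 0.214). Slc43a2, a carrier of large neutral amino acids, had 32.6, 34.4 and 26.4 CPM in WT and 20.7, 25.9 and 27.1 CPM in M92KO mice. WT replicate 3 lay within the M92KO range, with a log2 fold change of -0.34 (SE 0.13, edgeR adjusted p 0.352).

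Slc43a1, a related carrier, had 19.5, 27.4 and 26.0 CPM in WT and 23.2, 14.2 and 12.0 CPM in M92KO mice. M92KO replicate 1 stood among the WT libraries and the other M92KO libraries below them, with a log2 fold change of -0.56 (SE 0.23, edgeR adjusted p 0.388). Slc3a2, the heavy chain that pairs with the carrier Slc7a5, was the other gene of the 28 with every M92KO value below WT, at a log2 fold change of -0.13 (edgeR adjusted p 0.564). It had 42.8, 41.1 and 48.5 CPM in WT and 41.0, 39.8 and 40.5 CPM in M92KO mice, a near tie between WT replicate 2 and M92KO replicate 1. Such genes were 2 of the 28, and over all genes 9.58% had every M92KO value lower. The lowest fold change of the 28 belonged to Bcat1, the cytosolic aminotransferase, at -0.59 (SE 0.4), which rests on 10 to 50 reads in a library. The highest belonged to Slc7a8, a light chain of the same carrier family as Slc7a5, at 0.27 (SE 0.22). Klf15, a factor known to induce branched-chain amino acid breakdown genes in muscle, had a log2 fold change of -0.15 (SE 0.19), and the coactivator Ppargc1a had 0.17 (SE 0.13).

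The list of fasting genes, chosen like the others with earlier results of these data known, had the lowest median of those read here. Of 10 genes known to respond to fasting, 8 were lower and 0 higher in M92KO at an unadjusted p under 0.05, beside 6.92% lower and 5.47% higher among all genes, with a median log2 fold change of -0.894. Pdk4, the kinase that shuts off pyruvate dehydrogenase, had 864, 1780 and 1250 CPM in WT and 754, 481 and 435 CPM in M92KO mice (log2 fold change -1.22, SE 0.28, edgeR adjusted p 0.179). Ucp3, a mitochondrial carrier, had 201, 417 and 384 CPM in WT and 223, 146 and 133 CPM in M92KO mice, so the groups overlapped. Its log2 fold change was -0.999 (SE 0.28, edgeR adjusted p 0.237). For 12 genes of mitochondrial content, 1 was higher (Tomm20, log2 fold change 0.29, edgeR adjusted p 0.208), 0 were lower and the median was -0.027. The 6 skeletal muscle markers summed to 90660 to 104400 CPM in WT and 91120 to 104900 CPM in M92KO mice, so the defining genes of the labelled tissue were abundant in all 6 libraries.

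Markers of other cells were read from the same libraries. The 6 fibroblast markers summed to 1709 to 2270 CPM in WT and 1151 to 1597 CPM in M92KO mice, with 3 lower at an unadjusted p under 0.05. For this and the lists below, the share of all genes lower by that rule was 6.92%. All 6 fibroblast markers had a negative log2 fold change. In 4 of them every M92KO value was below WT, beside 9.58% of all genes. Summed levels of the 7 slow-fibre markers were 178 to 262 CPM in WT and 127 to 225 CPM in M92KO mice, and Myl3 and Atp2a2 made up most. Of these 7, 2 log2 fold changes were positive and 5 negative. The 5 macrophage markers summed to 44.4 to 47.9 CPM in WT and 28.8 to 45.5 CPM in M92KO mice. The 5 endothelial markers summed to 731.9 to 804 CPM in WT and 646.3 to 833.3 CPM in M92KO mice, the 5 red-cell markers to 74.0 to 223 and 143 to 336 CPM, and the 4 Schwann-cell markers, of which 2 were lower at an unadjusted p under 0.05, to 78.0 to 116 and 79.3 to 85.3 CPM. Of the 7 fat-cell markers, which summed to 431.9 to 640.3 CPM in WT and 322.6 to 432.5 CPM in M92KO mice, Plin4, which muscle also expresses, made up most, while Adipoq had 26 to 67 reads, Adrb3 0 to 14 and Lep 0 to 6. Without regard to abundance the list went the other way from its sum, since 4 of the 5 fat-cell markers tested had a positive log2 fold change, with a median of 0.623. The remaining 1, at -0.433, was lower at an unadjusted p under 0.05. In bulk muscle, fewer cells of a type and less RNA per cell cannot be told apart. The part of these lists in the values of the breakdown genes was not tested.

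**Figure D4:**
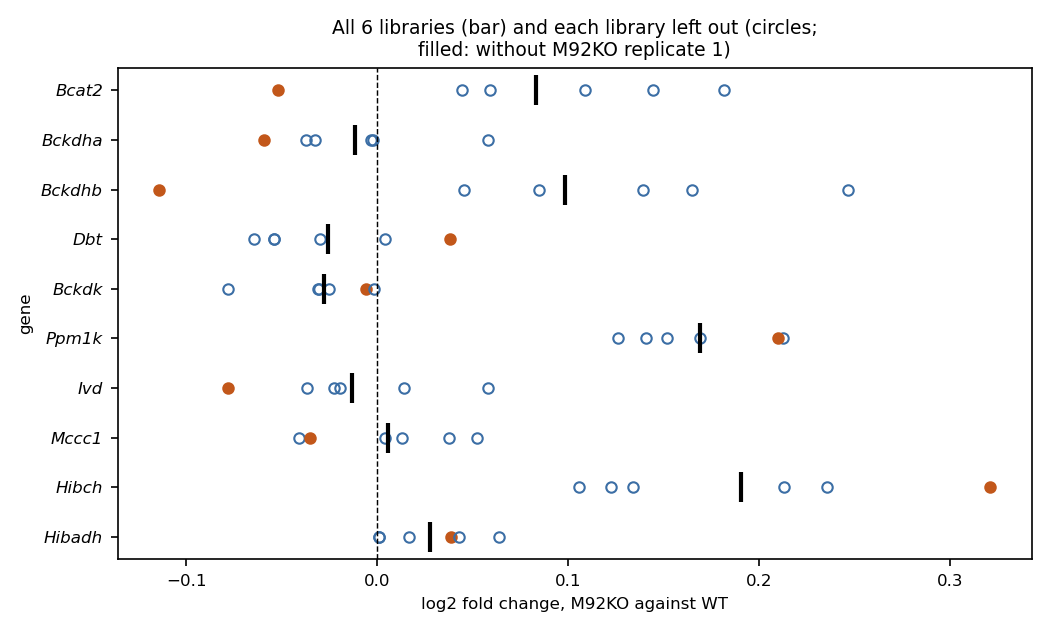
Log2 fold change, M92KO against WT, of the 10 genes with all 6 libraries (bar) and after removal of 1 library at a time (circles, filled where M92KO replicate 1 is left out). Ppm1k (0.126 to 0.213) and Hibch (0.106 to 0.321) lie above 0 in every case, and without M92KO replicate 1 Bcat2, Bckdhb, Dbt and Mccc1 lie on the other side of 0.

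Signs among the 10 depended on which mice were kept and on the processing. Ppm1k and Hibch were positive in 14 of 14 other settings, with Ppm1k past an unadjusted p of 0.05 in 5 of them and Hibch in 1. Without M92KO replicate 1 these 2 genes were past it, and without WT replicate 2 Ppm1k alone. Bckdk was negative in 14 of 14 settings, between -0.078 and -0.0016 with a library left out. In the other 7 genes the sign changed in at least 1 setting, for Hibadh only with the study's steps and all mice kept. In none of the 14 settings did any of the 10 reach an adjusted p under 0.05.

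Reads counted without regard to strand would include those of overlapping genes. Such partners of Bckdha and Mccc1, on the opposite strand, were B3gnt8 with 35 to 71 reads in a library, Gm15952 with 7 to 17 and Mccc1os with 4 to 13, where Bckdha had 4979 to 7980 and Mccc1 2108 to 3095. B230207O21Rik, opposite Mccc1, and Gm24355, on the strand of Hibadh, were not analysed here. Library totals were 38246649 to 48209846 reads in WT and 33160508 to 37019640 reads in M92KO mice (the M92KO libraries were the 3 smallest), and their normalization factors were 0.981 to 1.03. The 10 most abundant genes took 15.8% to 17.8% of a library.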

How the data were processed

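RNA from Gas muscle of 3 WT and 3 M92KO mice was made into libraries with a SMARTer kit and sequenced by the authors, who deposited raw counts of reads per gene symbol, without normalization. The submitters' processing notes name the build GRCm38 (mm10). The aligner, the counting program, its strand setting and the annotation are not given in the sources used here. The study's methods went on to limma on log2 values (with 1 added) that had passed through normalizeBetweenArrays. Here the counts were filtered with filterByExpr (minimum count 10, minimum total 15), normalized with TMM and compared without a covariate by the quasi-likelihood test of edgeR 4.0.16 in R 4.3.3, with Benjamini-Hochberg adjustment over 15788 genes. Fitting was tested on simulated data. Intervals are at the 95% level. Single values were compared by exact two-sided permutation tests of log2 CPM (prior count 2), whose smallest p is 0.1. Unadjusted p-values were only set against 0.05, the study's threshold.

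The 10 genes, the other lists and the tests were chosen with earlier results of these data known. Named beside the 10 are the pathway genes with an unadjusted p under 0.05 or the lowest or highest fold change. Also named are up to 2 genes by smallest p in each of the fasting and mitochondrial lists and the 5 genes most like the 10. Dld, Mccc2, Slc3a2, Klf15, Ppargc1a, the single fat-cell and slow-fibre markers and the overlapping genes were named after their values were seen. Positions, lengths and 3′-UTRs of at least 20 bases came from GENCODE M21, with 25731 symbols matched directly and 424 by a synonym, and miRNA sequences from RefSeq. Alternatives were DESeq2 1.42.0 (its size factors, or its Wald test), no filter, at least 10 counts in every library, the study's steps with limma 3.58.1, the replicate number as a block, offsets for GC content and transcript length (lowess span 0.3), both together, and each library left out. Nothing says whether the mice of a group shared a cage or litter, so p-values measure the spread between these libraries. Tables used pandas 2.3.3, numpy 2.4.6 and scipy 1.17.1, and figures matplotlib 3.10.9, all under Python 3.11.15.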

Additional observations from a re-analysis of the deposited data

How the results depend on the processing

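Among the fold changes of the 10 genes, recomputed under 14 alternatives, 122 kept their sign and their side of an unadjusted p of 0.05, 6 passed it and 12 changed sign. With the study's steps, 1 of the 10 genes passed (Ppm1k), the median log2 fold change was -0.0049, Hibadh stood at -0.018 and 1 of the 28 other pathway genes passed. Of all genes, 2287 of 34714 passed with these steps. With offsets for GC content and length, 1 of the 10 passed, beside 1998 of 14752 genes, and Ivd stood at 0.032. The replicate numbers of the labels did not pair the libraries (correlations of same-numbered deviations 0.0806, 0.0376 and 0.0151), and with the replicate number as a block 0 of the 10 and 3 of the 28 passed, with 686 genes higher and 1005 lower overall. With the block and the GC and length offsets together, 1 of the 10 (Ppm1k) and 1 of the 28 passed, beside 1629 of 14752 genes, and Ivd stood at 0.025. Leaving out 1 library gave 1222 to 2984 genes past 0.05, 0 to 2 of the 10, 1 to 5 of the 28 and a median of -0.021 to 0.058, with the low counts of all genes without WT replicate 2 (1222) and WT replicate 3 (1272), the high one and the lowest median without M92KO replicate 1, and the highest median without M92KO replicate 2. Over the same fits Bcat2 ranged from -0.052 to 0.182, Bckdha from -0.059 to 0.058, Bckdhb from -0.114 to 0.247, Dbt from -0.064 to 0.038, Ivd from -0.078 to 0.058 and Mccc1 from -0.041 to 0.052. Without M92KO replicate 1, 401 genes had an edgeR adjusted p under 0.05, none of the 10 among them. The cause of these changes was not tested. Each of the 10 genes had at least 707 reads in every library, whereas Bcat1 had as few as 10.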
